A study of Rattus norvegicus with 6 samples.

Results

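The genes described here are the subunits of the mitochondrial respiratory chain and ATP synthase, with cytochrome c. They were chosen by name: every rat gene on the array whose symbol starts with Nduf (assembly factors left out), Uqcr, Cox4 to Cox8 or Atp5, and Sdha, Sdhb, Sdhc, Sdhd and Cycs. This gave 78 genes of 15443 named genes, read by 98 probes: 31 of complex I, 4 of complex II, 8 of complex III, 17 of complex IV, 16 of ATP synthase, Cycs and Ndufa4. Ndufa4 was kept apart because it carries a complex I name but is now placed in complex IV. Of the 111 protein-coding rat symbols that meet the rule, 77 were matched to a probe, and the remaining gene of the 78 is the pseudogene Cox6c-ps1. The tissue isoforms Cox7a1, Cox7b2 and Ndufa4l2 and the c-ring gene Atp5mc3 were not matched, so they are not analysed here.

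The samples came from Sprague Dawley rats, 13 weeks old, and each of 6 was read on a one-colour array. A single array held myocardium after a sham operation, and another held myocardium after infarction and an injection of PBS, a buffer, into the muscle. A further 2 held infarcted myocardium injected with stem cells from adipose tissue (ADSCs, cultured cells of mesenchymal type) that were labelled with 124I-HIB, a lipid-soluble tracer that carries a positron-emitting iodine. These 2 are called treated, with the numbers 1 and 3 that the labels give them. The other 2 arrays came from ADSCs cultured for 14 days, 1 unlabelled and 1 labelled with 124I-HIB. The labels count 21 days from a sham operation for every myocardial sample, so when the infarcts were made is unclear. They do not say which part of the heart was sampled, whether the treated samples came from separate animals, or how many animals the cultured cells came from. Only the treated group had more than 1 array, so p-values measure only how these samples scatter, and that scatter may be technical.

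Complex I takes electrons from NADH and complex II from succinate, and both pass them through ubiquinone to complex III. Cytochrome c carries them on to complex IV, cytochrome c oxidase, where oxygen is reduced, and the proton gradient built by complexes I, III and IV drives ATP synthase. Heart muscle is among the tissues richest in mitochondria, and several complex IV subunits exist there as a heart and skeletal muscle isoform beside a form found in most tissues.

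Levels are given as the log2 signal minus the 75th percentile of that array, so a level of 0 is the array's upper quartile and a difference of 1 is a doubling. A gene was read from its brightest probe, and levels are set against each other only for the same probe. A gene counted as measured in a comparison when it stood well above background, by the scanner software's own call, on every array compared. Of the 78 genes, 76 did so on all 6 arrays. Cox8b did so on 5, and Cox8c, a testis isoform, on none. The 75th percentile was a signal of 771.9 to 1275.5 on the myocardial arrays and 2360.3 and 2615.3 on the cell arrays, 64.4% to 69.4% of probes stood well above background, and no spot was saturated. All arrays lay on 1 slide in 1 scan, the myocardial arrays in 1 row and the cell arrays in another, so tissue source and slide row cannot be told apart. Of 15 cardiomyocyte markers on the array, 7, Myh6 and Myl2 among them, were not well above background on either cell array, and the other 8 were called lower in the cells. The log2 of their summed signal was 11.38 to 11.92 in myocardium and 2.26 and 2.36 in the cells. For 9 mesenchymal markers that sum was 3.07 to 3.27 in myocardium and 4.64 and 4.68 in the cells, and Thy1 stood well above background on the cell arrays only. Of the other 8, measured on all arrays, 4 were called higher in the cells, and 1, Cd34, lower (-0.51). Over all features measured on all arrays, 36% were called higher and 34.7% lower in the cells.

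Sequences before the gene start are shown for 6 genes whose values the results below turn on: the muscle isoforms Cox6a2 and Cox8b, the widely expressed Cox8a and Cox7a2l, which differed least between cells and myocardium among the genes shown, and Ndufs1 and Sdha as genes of complexes I and II. They were chosen after the values were seen. Each line holds the 250 bases upstream of the RefSeq gene start in GRCr8, written 5′ to 3′ on the gene's strand, with motif matches in capitals.
Cox6a2, chr1:192219717-192219966, minus strand: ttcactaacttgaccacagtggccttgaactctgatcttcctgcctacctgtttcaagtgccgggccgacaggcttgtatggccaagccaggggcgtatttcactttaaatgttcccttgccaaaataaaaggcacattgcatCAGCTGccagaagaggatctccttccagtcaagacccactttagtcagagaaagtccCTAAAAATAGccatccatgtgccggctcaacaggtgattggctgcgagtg
Cox8b, chr1:205408274-205408523, minus strand: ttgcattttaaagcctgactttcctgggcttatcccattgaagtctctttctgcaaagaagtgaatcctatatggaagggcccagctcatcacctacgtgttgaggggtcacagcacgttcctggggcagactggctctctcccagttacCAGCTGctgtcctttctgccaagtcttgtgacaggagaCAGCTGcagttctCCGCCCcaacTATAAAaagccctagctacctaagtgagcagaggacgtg
Cox8a, chr1:213833624-213833873, minus strand: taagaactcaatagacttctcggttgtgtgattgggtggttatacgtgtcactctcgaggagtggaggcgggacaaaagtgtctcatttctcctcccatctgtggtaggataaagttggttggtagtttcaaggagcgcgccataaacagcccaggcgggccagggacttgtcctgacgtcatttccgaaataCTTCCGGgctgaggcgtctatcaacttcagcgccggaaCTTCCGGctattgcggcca
Cox7a2l, chr6:16936324-16936573, plus strand: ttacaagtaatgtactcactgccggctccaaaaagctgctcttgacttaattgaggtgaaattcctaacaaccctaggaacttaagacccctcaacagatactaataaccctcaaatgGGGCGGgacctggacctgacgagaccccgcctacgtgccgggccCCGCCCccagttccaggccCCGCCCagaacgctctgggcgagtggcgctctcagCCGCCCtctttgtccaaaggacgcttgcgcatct
Ndufs1, chr9:72073606-72073855, minus strand: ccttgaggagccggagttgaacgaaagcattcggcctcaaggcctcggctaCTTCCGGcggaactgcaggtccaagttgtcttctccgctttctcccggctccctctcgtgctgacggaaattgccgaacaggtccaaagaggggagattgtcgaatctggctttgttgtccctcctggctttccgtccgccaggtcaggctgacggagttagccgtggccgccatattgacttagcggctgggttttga
Sdha, chr1:30764303-30764552, plus strand: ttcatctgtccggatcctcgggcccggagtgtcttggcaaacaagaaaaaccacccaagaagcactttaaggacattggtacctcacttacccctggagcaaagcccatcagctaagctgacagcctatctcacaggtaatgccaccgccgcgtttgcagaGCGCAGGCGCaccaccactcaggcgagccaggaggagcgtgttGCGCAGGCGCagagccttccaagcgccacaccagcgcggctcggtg
The motifs were searched on both strands: GCGCA followed after any 1 base by GCGC for NRF1, CCGGAAG for ETS factors such as GABP, GGGCGG for Sp1, AAGATGGC for YY1, AAGGTCA for estrogen-related receptors, TATAAA for a TATA box, CAGCTG for a muscle E-box and, by name, MEF2. Cox6a2 held the only MEF2 match among the 68 genes that had a sequence, together with 1 E-box. Cox8b held 2 E-boxes, a TATA box and an Sp1 match. Cox8a held 2 ETS matches, Cox7a2l held 4 Sp1 matches, Ndufs1 held 1 ETS match and Sdha held 2 NRF1 matches. Over the 68 genes, NRF1 was matched in 10 (14.7%, against 3.8% of all 33469 rat promoters of this length), ETS in 19 (27.9% against 7.3%) and the estrogen-related receptor motif in 6 (8.8% against 4.0%). Sp1 was matched in 35.3% against 30.5%, YY1 in 2.9% against 1.6%, the E-box in 13.2% against 12%, the TATA box in 7.4% against 12.9% and MEF2 in 1.5% against 3.0%. The GC content had a median of 55.8% in these sequences and 51.2% in all promoters, and Sp1, ETS and NRF1 letters are rich in G and C. A match shows only that the letters are present. The median difference between cells and myocardium was -2.74 over the 10 genes with an NRF1 match and -2.69 over the 57 measured genes without one. For ETS it was -2.68 with (19 genes) and -2.75 without (48), and for Sp1 -2.57 with (23) and -2.72 without (44), so the small differences ran in both directions.

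Cultured ADSCs against myocardium gave the largest differences. The respiratory chain was lower in the cells almost throughout: of 77 genes tested, 73 were lower and 0 higher at an adjusted p under 0.05 (limma, 2 cell arrays against 4 myocardial arrays, Benjamini-Hochberg over 21173 features). Over all features tested, 35.7% were lower and 33% higher. Of the 76 genes measured on all 6 arrays, 72 were called lower, against 34.7% of the 15886 features so measured (36% were called higher). The median over the 76 genes measured on all 6 arrays was -2.59, against 0.03 over all such features. In 65 genes the difference was called and reached a log2 of -2 or beyond, which 13.5% of all features did. In 74 of the 76 genes all 4 myocardial arrays lay above both cell arrays, which held for 38.9% of features. Most of the genes lay in a narrow band, with 63 between -2 and -4. The spread used in this test includes the differences among sham, PBS and treated tissue. Each array read RNA from a whole sample, so fewer cells of a type and less RNA per cell cannot be told apart.

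**Figure D1:**
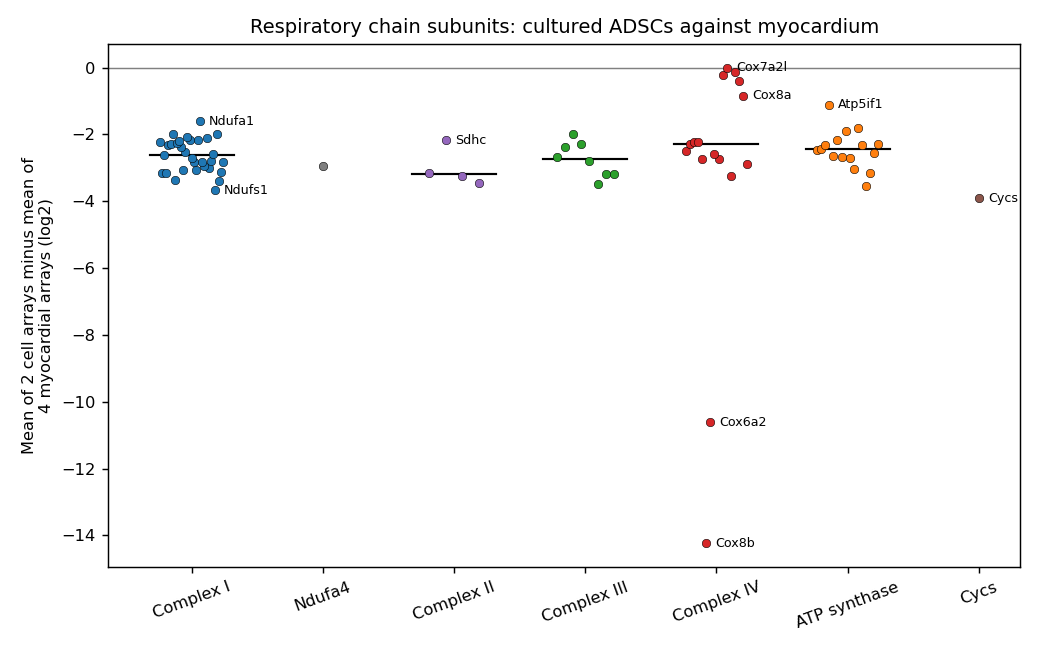
Mean of the 2 cell arrays minus mean of the 4 myocardial arrays (log2, vertical axis) for the 77 tested genes by complex (horizontal axis). Each point is a gene, placed sideways at random, and bars are medians over genes measured on all 6 arrays. Most genes lie between -2 and -4, Cox8b (-14.23, a bound, since labelled cells were not well above background) and Cox6a2 (-10.62) lie far below, and a group of complex IV genes lies near 0.

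In complex I, 31 of 31 genes were called lower in the cells (median -2.62). Ndufs1, the largest iron-sulphur subunit of the NADH-oxidising arm, stood at 5.16 in sham, at 4.98 in PBS, at 5.18 and 4.96 in treated tissue, at 1.34 in unlabelled and 1.45 in labelled cells. The 4 tissue values were close together and far above both cell values. The difference was -3.68 ± 0.13 (SE, limma adjusted p = 2.35e-06), the lowest of the complex. The highest was Ndufa1, a small accessory subunit of the membrane arm, at -1.60 ± 0.17 (adjusted p = 2.43e-04). Its tissue levels of 5.79 to 6.28 were still above 4.46 and 4.31 in the cells. The 7 core subunits on the array, those that carry the redox centres, had a median of -2.96 and the 24 accessory subunits one of -2.45, a difference that was not tested. Ndufv3 was read by 3 probes, of which 2 gave -3.39 and -3.15 and the other 0.79. That probe had levels of 0.04 to 0.23 in tissue and 0.96 and 0.88 in the cells. Of the 17 genes with more than 1 probe, the other 16 had a single sign over their probes, and 14 of the 17 had probes within a log2 of 1 of each other. Ndufa4 differed by -2.95 ± 0.16 (adjusted p = 1.64e-05).

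Complex II, which also serves the citrate cycle, had a median of -3.20 over its 4 genes. Sdhd, a membrane anchor, had levels of 5.83, 5.49, 5.60 and 5.67 in sham, PBS and treated tissue and of 2.14 and 2.25 in the cells. Tissue and cells did not overlap, and the difference was -3.45 ± 0.14 (adjusted p = 4.32e-06). Sdhc, the other anchor, differed least, by -2.18 ± 0.23 (adjusted p = 2.75e-04). In complex III, Uqcrfs1, the Rieske iron-sulphur protein, was lowest at -3.49 ± 0.14 (adjusted p = 4.60e-06). Its levels were 5.67 to 6.02 in tissue and 2.34 and 2.43 in the cells. Uqcr11, a small subunit, was highest at -1.97 ± 0.21 (adjusted p = 2.39e-04). The Rieske protein and the 2 core proteins had a median of -3.20 and the other 5 genes one of -2.37. Cycs, cytochrome c, stood at 6.56 in sham, at 5.91 in PBS, at 6.06 and 6.04 in treated tissue, and at 2.13 and 2.33 in the cells. Its difference was -3.91 ± 0.20 (adjusted p = 1.33e-05), lower than that of any gene of complexes I, II, III or ATP synthase. Its second probe gave -3.60.

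In ATP synthase, 16 of 16 genes were called lower (median -2.45). The lowest was Atp5mc1, which encodes the c subunit of the rotor ring, at -3.54 ± 0.17 (adjusted p = 1.01e-05). It had levels of 7.53 to 8.04 in tissue and 4.16 and 4.20 in the cells. Atp5mc2, a second gene for the same mature subunit, differed by -2.17 ± 0.15 (adjusted p = 3.48e-05). The 5 F1 subunits had a median of -2.68, the 4 peripheral stalk subunits -2.52 and the 4 small membrane subunits -2.30. The highest was Atp5if1, which encodes the inhibitor that stops the enzyme from running backwards. Its levels were 5.37, 4.98, 5.14 and 5.09 in sham, PBS and treated tissue and 3.99 and 4.08 in the cells. The groups did not overlap, and the difference was -1.11 ± 0.14 (adjusted p = 6.18e-04).

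Complex IV held both ends of the range. Cox8b, the heart and skeletal muscle isoform of the smallest subunit, stood at 8.14 in sham, at 7.44 in PBS, at 7.50 and 7.63 in treated tissue, at -5.98 in unlabelled and -7.12 in labelled cells. The 4 tissue values lay far above both cell values, and of the cell arrays only the unlabelled one stood well above background. The labelled value is only an upper limit, so the fitted difference of -14.23 ± 0.35 (adjusted p = 6.83e-07) is a bound. It puts the mean of the 2 cell arrays at least 19241-fold below tissue. With the unlabelled cells alone, where Cox8b was measured, the difference was smaller, at -13.66. Cox8a, the widely expressed isoform, had levels of 5.74, 5.51, 5.63 and 5.59 in tissue and 4.80 and 4.76 in the cells. It was lower in the cells by -0.84 ± 0.12 (adjusted p = 8.76e-04). Cox6a2, the muscle isoform of subunit 6A, had levels of 8.41, 7.92, 7.95 and 8.07 in tissue and -2.02 and -3.04 in the cells. The difference was -10.62 ± 0.30 (adjusted p = 1.14e-06). Its widely expressed counterpart Cox6a1 had levels of 6.82, 6.44, 6.52 and 6.52 in tissue and 6.34 and 6.39 in the cells. The cell values lay just below all tissue values, and the difference of -0.21 ± 0.14 was not called (adjusted p = 0.229).

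The other complex IV genes not called were Cox7a2l, Cox4i2 and Cox6b2. Cox7a2l, whose product takes part in joining complexes III and IV into supercomplexes, stood at 4.66 in sham, at 4.39 in PBS, at 4.46 and 4.43 in treated tissue, and at 4.57 and 4.39 in the cells. Tissue and cells overlapped, with a difference of -0.00 ± 0.13 (adjusted p = 0.979). Its relative Cox7a2, a structural subunit, differed by -2.72 ± 0.11 (adjusted p = 4.28e-06). Cox4i2, the isoform known for its response to oxygen, had levels of 1.19 to 1.61 in tissue and 1.22 and 1.32 in the cells (difference -0.13 ± 0.15, adjusted p = 0.452). Cox4i1, the main isoform of that subunit, differed by -2.48 ± 0.16 (adjusted p = 2.95e-05). Cox6b2, a testis isoform, ran from 1.64 to 2.29 in tissue and was 1.64 and 1.54 in the cells (difference -0.39 ± 0.20, adjusted p = 0.119). Without treated replicate 1 it was called (-0.50, adjusted p = 0.0417). Cox6b1 differed by -2.23 ± 0.13 (adjusted p = 2.31e-05) and Cox7b by -3.25 ± 0.16 (adjusted p = 9.49e-06). A p above the threshold does not show that these 4 genes were at equal levels.

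**Figure D2:**
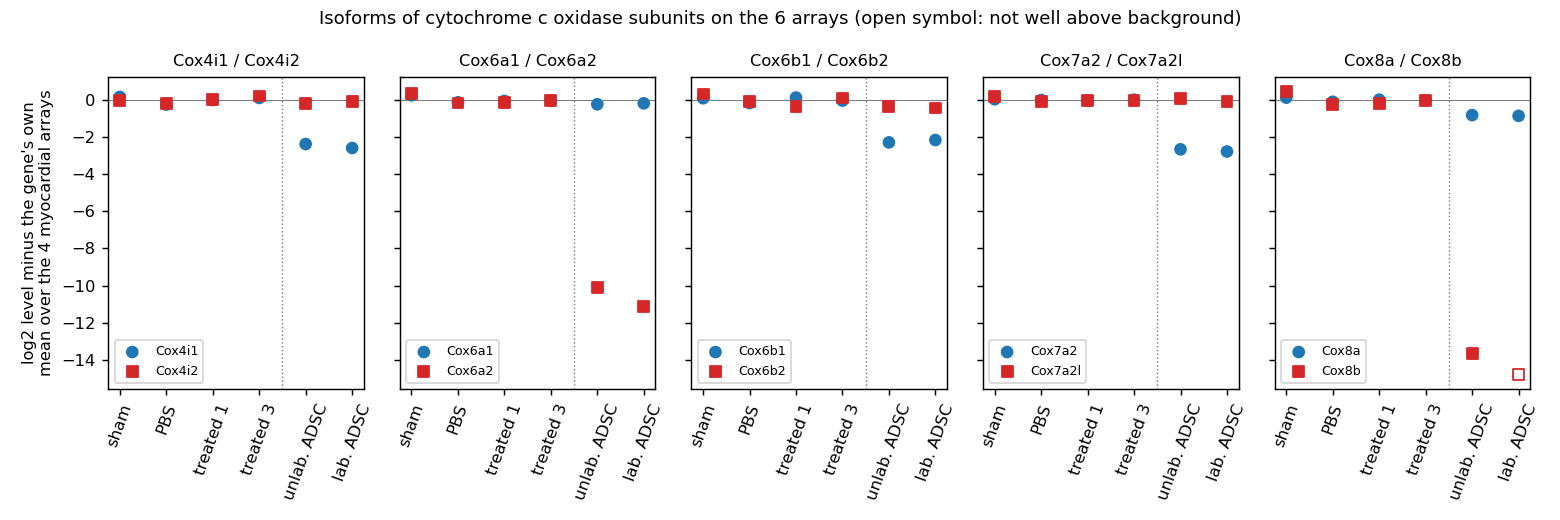
Log2 level minus the gene's own mean over the 4 myocardial arrays (vertical axis) on the 6 arrays (horizontal axis; unlab. and lab. ADSC are the unlabelled and labelled cells) for paired complex IV genes. Filled symbols stood well above background and the dotted line separates tissue from cells. Cox6a2 and Cox8b fall steeply in the cells while Cox4i2, Cox6a1, Cox6b2 and Cox7a2l stay near 0.

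These values are relative to each array's 75th percentile, which was a brighter signal on the cell arrays. With no scaling between arrays, an alternative added after seeing the data, the median of all measured features moved to 1.29 and that of the respiratory chain genes to -1.33. The count lower was then 69, and Cox6a1, Cox4i2, Cox6b2 and Cox7a2l were called higher in the cells. Cox8a and Atp5if1 were then at 0.42 and 0.15, neither called. Among calls over all features, 6988 were higher and 7556 lower, but 8745 and 6021 with median centring, 8124 and 6282 with quantile normalization, and 5584 and 11090 with normexp background correction. Each of these 3 settings called 73 of the respiratory chain genes lower and 0 higher.

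Genes that serve the chain without being part of it were taken from lists. Of 52 assembly factors, 41 were on the array, all measured on the 6 arrays, and 33 were called lower and 1 higher in the cells, with a median of -1.30. The shares over all features so measured, 34.7% lower and 36% higher, apply to each of these lists. The lowest were Fmc1 (-3.65), which helps to assemble ATP synthase, Ecsit (-3.56), a complex I assembly factor, and Cox17 (-3.39), a copper chaperone of complex IV. The gene called higher was Cox16 (0.43). Of 31 carrier, coenzyme Q and phosphocreatine genes, 28 were measured on all 6 arrays, and of these 23 were called lower and 3 higher. Ckmt2, the muscle mitochondrial creatine kinase, was at 7.37 to 7.91 in tissue and not well above background on either cell array. Coq8a, needed for coenzyme Q synthesis in muscle, differed by -5.68 (adjusted p = 3.89e-06), while Coq8b was called higher (0.55, adjusted p = 0.00553). Of 23 regulators of mitochondrial biogenesis, 20 were measured on all 6 arrays, and of these 11 were called lower and 2 higher. Perm1, a muscle regulator of oxidative metabolism, had levels of 3.67, 3.00, 3.61 and 3.62 in tissue and -6.25 and -6.13 in the cells (difference -9.67, adjusted p = 4.60e-07). Ppargc1a, a coactivator of mitochondrial genes, ran from -1.23 to -0.98 in tissue and was not well above background in the cells. Nrf1 and Gabpa, whose products bind the NRF1 and ETS motifs, differed by 0.32 (adjusted p = 0.0965) and 0.07 (adjusted p = 0.675). Ucp1, which marks brown fat, a tissue that also uses muscle-type complex IV isoforms, was not well above background on any array. Of the 6 brown fat markers listed, which include Ppargc1a, Dio2 and Zic1 were not either, and Elovl3 was on 3 arrays. Cidea went the other way, with levels of 4.74 to 5.21 in tissue and -2.20 and -1.94 in the cells (difference -7.02, adjusted p = 5.85e-07).

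PBS-injected infarct against sham compared 1 array with 1, so it has no test. All 77 measured genes were lower on the PBS array, which held for 55.5% of all 17255 measured features. The differences were small, with a median of -0.41 against -0.05 over all features, and none reached 2-fold, as 3.67% of all features did in either direction. At 1.5-fold 12 genes were lower, against 6.79% of features. The sham array was the highest of the 4 myocardial arrays in 68 of the 77 genes (34.3% of features) and the PBS array was the lowest in 58 (30.3%).

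In complex I the median was -0.42. Ndufs5, an accessory subunit, was lowest: its level was 6.74 in sham, 5.87 in PBS, and 6.19 and 6.10 in treated tissue, a difference of -0.88. A second probe of Ndufs5 gave -0.45, near the median of the complex. Ndufb10 differed least (-0.09), though its second probe gave -0.235. Complex II ranged from Sdhc, at 4.51 in sham and 3.68 in PBS (-0.82), to Sdha, the flavoprotein, at 5.54 and 5.35 (-0.19). In complex III, Uqcr11 was lowest (-0.66) and the core protein gene Uqcrc2 highest (-0.21). In complex IV, Cox8b was lowest (-0.69), and Cox7a2 highest at 6.43 in sham and 6.39 in PBS (-0.04). A second probe of Cox7a2 gave -0.54. Of the isoforms, Cox6a2 differed by -0.49 and Cox6a1 by -0.38, Cox8a by -0.22, Cox4i1 by -0.41 and Cox4i2 by -0.18, Cox6b1 by -0.26 and Cox6b2 by -0.39, Cox7a2l by -0.27 and Cox7b by -0.47. In ATP synthase, Atp5mk, a small membrane subunit, was lowest at 6.88 in sham and 6.03 in PBS (-0.86), and Atp5f1c, the central stalk subunit, highest at 5.38 and 5.16 (-0.22). Atp5mc1 differed by -0.51, Atp5mc2 by -0.39, Atp5if1 by -0.39 and Ndufa4 by -0.50. Cycs differed by -0.65 on its brighter probe and by -0.06 on the other.

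Bright features in general were lower on the PBS array. Among other features with a mean myocardial level of 6 or more, 93.8% were lower, with a median of -0.36, against -0.47 for the 40 respiratory chain genes of that class. Between 4 and 6 the medians were -0.20 over 839 other features and -0.34 over 31 of these genes. Quantile normalization, which gives the arrays equal distributions, moved the median of the respiratory chain genes to -0.13, and the deposited table put it at -0.12, and in each of these 68 of the 77 genes were lower. The tissue markers moved as well: all 15 cardiomyocyte markers were lower on the PBS array with a median of -0.47, 8 of 9 fibroblast markers were higher with a median of 0.25, and all 7 mitotic markers were lower with a median of -0.48. The log2 of the summed signal of 8 atrial markers was 8.81 on the PBS array and 7.15 to 7.40 on the other myocardial arrays. For 6 erythroid markers it was 9.41 in sham and 8.58 in PBS. The atrial sum hides larger shifts of single genes, since Myl4 was bright on both arrays (7.33 in sham, 7.10 in PBS). Of 6 atrial markers measured on both arrays, 4 were higher on the PBS array and 2 lower. Myl7 differed by 8.07, Mybphl by 6.84 and Nppa by 3.70. The part of these shifts in the result was not tested. The assembly factors were lower in 38 of 41, with a median of -0.29.

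**Figure D3:**
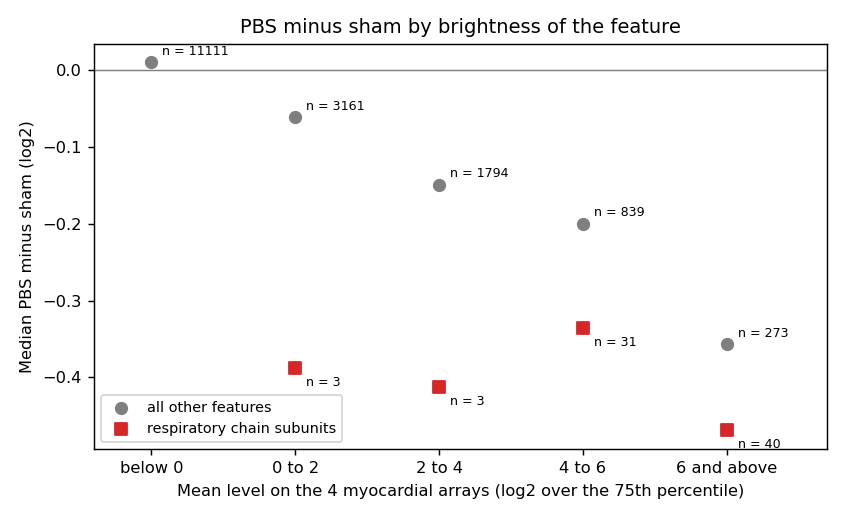
Median PBS minus sham difference (log2, vertical axis) by class of mean level on the 4 myocardial arrays (horizontal axis), for respiratory chain subunits and all other measured features, with the number of features beside each point. Both medians lie lower in the brightest class, at -0.36 for other features and -0.47 for the subunits.

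Treated infarct against PBS addressed what the tissue looked like when labelled ADSCs had been given. The respiratory chain genes were slightly higher in treated tissue, with a median of 0.14 against 0.01 over all features. In 58 of 77 both treated arrays lay above the PBS array, and in 2 both lay below, against 38.6% and 34.2% of all features. Other bright features were slightly higher as well. At a mean myocardial level of 6 or more their median was 0.10, against 0.13 for 40 of these genes. In that class 19.8% of the other features and 2.5% of these genes were lower on both arrays. Between 4 and 6 the medians were 0.07 over 840 other features and 0.17 over 31 of these genes. No gene was called by limma, nor was any of the 19603 features tested (0%). None of the genes was 2-fold apart on both treated arrays, as 1.26% of features were. At an unadjusted p under 0.05, 3 of the genes passed, as did 9.66% of features, and trended, robust variances also gave 0 calls. Those 3 were Uqcrq, Sdhc and Uqcr11. Uqcrq, the ubiquinone-binding small subunit of complex III, stood at 0.28 in PBS, at 1.05 and 1.00 in treated tissue and at 0.93 in sham. Both treated values lay above sham and PBS. The difference was 0.75 ± 0.16 (adjusted p = 0.411). Sdhc was at 3.68 in PBS and 4.17 and 4.20 in treated tissue, a difference of 0.50 ± 0.16 (adjusted p = 0.505). Uqcr11 was at 5.68 in PBS and 6.13 and 6.27 in treated tissue (0.52 ± 0.17, adjusted p = 0.517).

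By complex, the median was 0.18 in complex I, 0.31 in complex II, 0.12 in complex III, 0.09 in complex IV and 0.12 in ATP synthase. In complex I, Ndufs7, a core subunit, was highest by its smaller difference (0.32 and 0.34 above PBS), and Ndufa1 was lower on both arrays (-0.18 and -0.05). By the mean of both arrays, Ndufa10l1 was highest in complex I (0.48 and 0.31). In complex II, Sdha had the lowest mean (0.22 and 0.07), and Sdhd stood at 0.11 and 0.18. Uqcrb was the other gene lower on both arrays (-0.07 and -0.03). Its second, dimmer probe was higher on both, at -0.81 in PBS and -0.69 and -0.77 in treated tissue. In complex IV, Cox4i2 was highest (0.25 and 0.42) and Cox5a had the lowest mean (0.07 and -0.31). Cox7a2 stood at -0.02 and 0.02. In ATP synthase, Atp5pd, of the peripheral stalk, was highest (0.18 and 0.24) and Atp5f1a, the alpha subunit, lowest (-0.25 and 0.02). The muscle isoforms Cox6a2 and Cox8b differed by 0.09 and 0.12 in the mean, Cox6a1 by 0.08, Cox4i1 by 0.30, Cox6b1 by 0.22, Cox6b2 by -0.04, Cox7a2l by 0.05, Cox7b by 0.16 and Cox8a by 0.10. Atp5mc1 differed by 0.12, Atp5mc2 by 0.19, Atp5if1 by 0.14 and Ndufa4 by 0.24. Cycs was 0.16 and 0.13 above PBS. With quantile normalization the median was 0.08, and 12 genes were lower on both treated arrays. The share over all features in that setting is not given. All 9 fibroblast markers were lower on both treated arrays than on the PBS array, and all 7 mitotic markers were higher. Of 5 measured atrial markers, 3 were lower on both treated arrays and 1 was higher. Myl7 stood at 7.60 in PBS and at 2.02 and 0.83 in treated tissue. Of 5 measured erythroid markers, 4 were higher and 0 lower, with a median of 1.03. Of 15 cardiomyocyte markers, 5 were higher and 4 lower, with a median of 0.03. Their part in the result was not tested.

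Treated infarct against sham uses the same treated arrays and is set beside the comparison above only as values. The median was -0.24 against -0.04 over all features. In 68 of 77 genes both treated arrays lay below sham and in 2, Cox4i2 and Uqcrq, both lay above, against 42.3% and 32.9% of features. None was 2-fold apart on both arrays (0.973% of features). Bright features in general were lower in treated tissue than in sham. At a mean myocardial level of 6 or more the median was -0.26 over 273 other features and -0.35 over 40 of these genes. In that class 83.2% of the other features and 100% of these genes were lower on both arrays. Between 4 and 6 the medians were -0.14 over 838 other features and -0.15 over 31 of these genes. Again limma called 0 genes and 0 features (0%), and 6 genes, all lower, passed at an unadjusted p under 0.05, against 9.62% of features. These were Atp5mk (-0.67), Atp5f1a (-0.62), Ndufs5 (-0.60), Cox8b (-0.57), Cox6c (-0.55) and Cycs (-0.51). A second probe of Cycs did not show this, at 5.30 in sham and 5.40 and 5.28 in treated tissue. That of Ndufs5 showed a smaller shift, from 5.99 in sham to 5.75 and 5.64. That of Atp5mk stood at 6.74 in sham and 6.04 and 6.10 in treated tissue. Atp5mk had the smallest adjusted p, 0.457, with levels of 6.88 in sham and 6.19 and 6.25 in treated tissue. Uqcr10 was lowest in complex III (-0.60 and -0.40) and Sdhc in complex II (-0.34 and -0.31). Highest in the mean of their complexes were Ndufb7 in complex I (-0.03 and -0.01), Sdha in complex II (0.03 and -0.13) and Atp5f1c in ATP synthase (0.08 and -0.12). Among the isoforms, Cox6a2 differed by -0.41 in the mean, Cox6a1 by -0.30, Cox4i1 by -0.11, Cox8a by -0.13, Cox6b1 by -0.04, Cox6b2 by -0.43, Cox7a2 by -0.05, Cox7a2l by -0.22 and Cox7b by -0.31. Atp5mc1 differed by -0.40, Atp5mc2 by -0.20, Atp5if1 by -0.25 and Ndufa4 by -0.27. Cox7c had the lowest mean, with treated arrays that stood apart: it was at 3.78 in sham, 3.15 in PBS, and 3.47 and 2.62 in treated tissue. With quantile normalization the median was -0.04 with 37 genes lower on both arrays, and with the deposited table it was -0.04 with 39, so the count and the size depend on the scaling. No share over all features is given for these counts. Of 15 cardiomyocyte markers, 14 were lower on both treated arrays than in sham and 0 higher, with a median of -0.44. The part of this marker shift in the result was not tested.

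**Figure D4:**
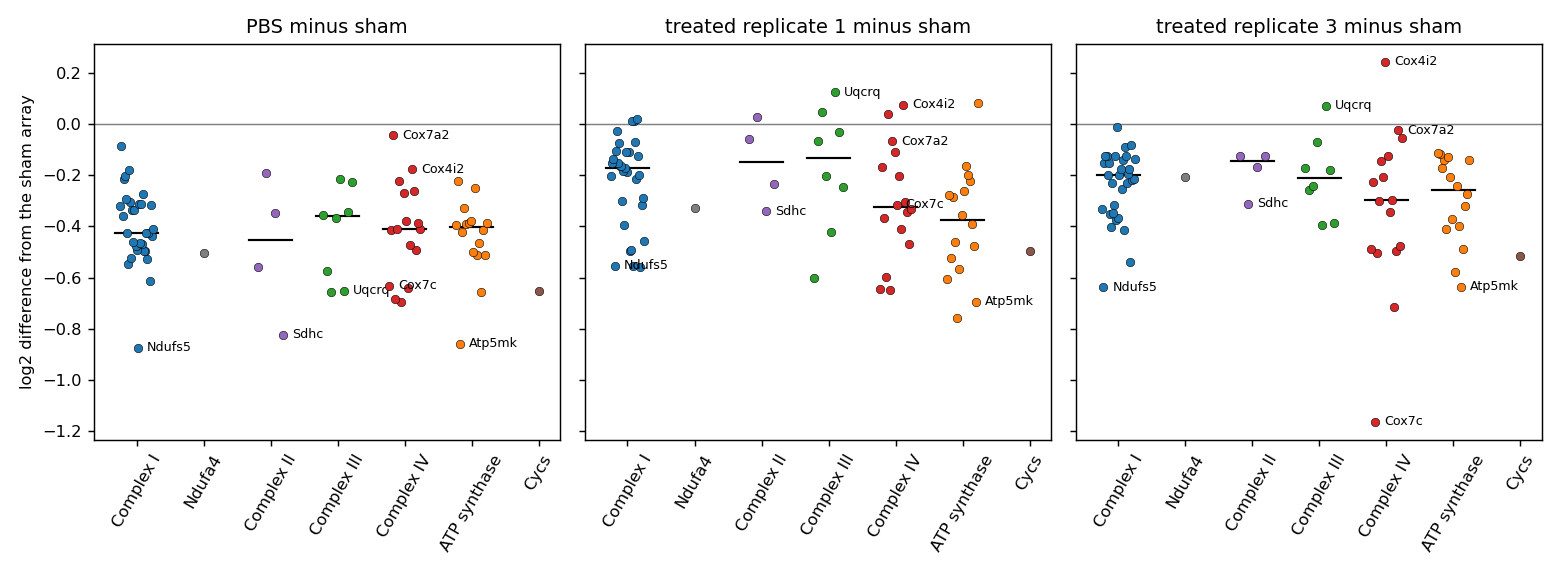
Difference of the PBS array and of each treated array from the sham array (log2, vertical axis) for 77 respiratory chain genes by complex (horizontal axis). Points are genes, placed sideways at random, and bars are medians. Every point is below 0 on the PBS array, and the treated points lie mostly between 0 and -0.6, with Cox7c far lower on treated replicate 3 than on replicate 1.

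Labelled against unlabelled cells, 1 array each and so without a test, addressed whether the tracer altered the cells. The respiratory chain genes were close to equal: 35 of 76 were higher and 41 lower in labelled cells, against 43.9% and 56.1% of all 18271 features. The median was -0.01, and -0.04 over all features. One gene was 2-fold apart (1.04% of features), Cox6a2, at -2.02 in unlabelled and -3.04 in labelled cells (-1.01). It was dim on both arrays and under 2-fold with normexp correction, quantile normalization, median centring, the deposited table or no scaling. Cox8b was at -5.98 in unlabelled cells and not well above background in labelled cells, where its own signal makes it at least 2.20-fold lower. That signal is near background on both arrays.

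**Figure D5:**
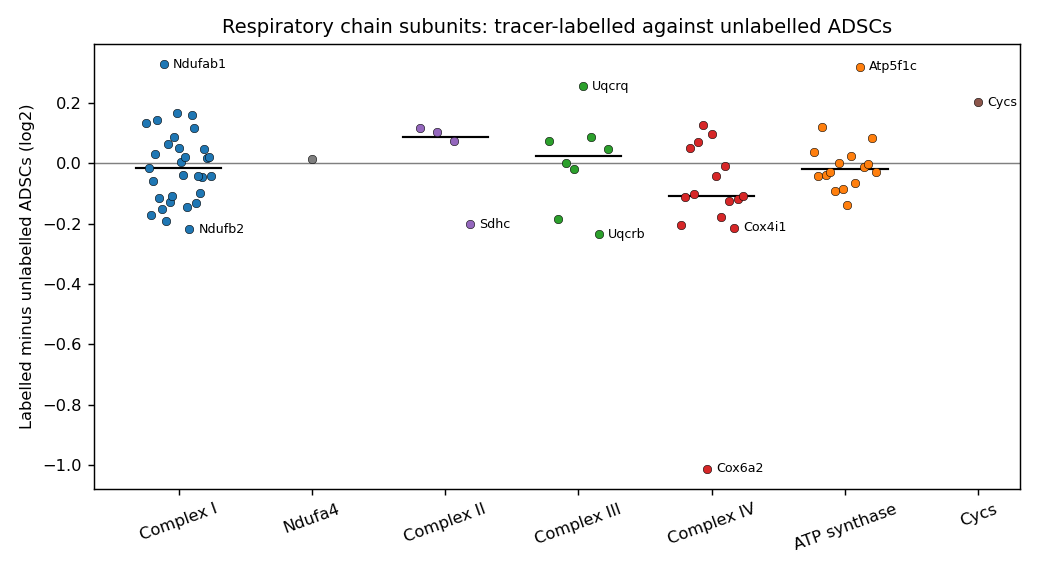
Labelled minus unlabelled cells (log2, vertical axis) for 76 respiratory chain genes by complex (horizontal axis). Points are genes, placed sideways at random, and bars are medians. All but Cox6a2 (-1.01) lie within 0.33 of 0.

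Elsewhere the range was narrow. In complex I it ran from Ndufb2 (-0.22) to Ndufab1, the mitochondrial acyl carrier protein, at 2.04 in unlabelled and 2.37 in labelled cells (0.33). A second, much dimmer probe of Ndufab1 ran the other way, at -4.77 in unlabelled and -5.22 in labelled cells. In complex II it ran from Sdhc (-0.20) to Sdha (0.12), and in complex III from Uqcrb (-0.24) to Uqcrq (0.26). In complex IV, 11 of 15 genes lay below the unlabelled value (median -0.11), and the highest was Cox6b1 (0.13). Cox4i1 differed by -0.21, Cox7a2 by -0.12, Cox7a2l by -0.18, Cox6b2 by -0.10, Cox8a by -0.04, Cox7b by -0.01, Cox6a1 by 0.05 and Cox4i2 by 0.10. In ATP synthase it ran from Atp5po, a peripheral stalk subunit, at -0.14 to Atp5f1c, at 2.00 in unlabelled and 2.31 in labelled cells (0.32). Atp5mc1 and Atp5mc2 differed by 0.04 and -0.01, Atp5if1 by 0.08, Ndufa4 by 0.02 and Cycs by 0.20. Without scaling 11 genes were lower, with a median of 0.13 against 0.11 over all features. All 7 mitotic markers were higher in the labelled cells, with a median of 0.56, and their part in these values was not tested.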

How the data were processed

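Per the labels' protocols, RNA was purified on Qiagen columns and labelled with Cy3. The files deposited for single arrays are scanner output, with intensity values of 58717 spots. The submitters' processing notes name Agilent Feature Extraction 11.0.1.1 for it. A second deposited file holds log2 values with equal medians in the 4 myocardial columns (8.85) and in the 2 cell columns (9.67). The steps behind it are not given in the sources used here, but it rises with log2 processed signal on each array. Tissue and cells were normalized separately there, so it was an alternative within each only.

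Here log2 processed signal was taken minus the array's 75th percentile over non-control spots, without flagged spots. Probes were named by accession from RefSeq (GRCr8, names only): 18355 of 30367 had a symbol, 12012 none and 0 several. Named genes and unnamed probes gave 27455 features. Signal from near-identical copies, such as Cox6c and Cox6c-ps1, may be shared. Tests used limma 3.58.1 (R 4.3.3, lmFit and eBayes), in a fit of the 4 myocardial arrays (1 residual degree of freedom) and in a fit of all 6 as cells against myocardium (4), over features well above background on an array of the fit, and were tested on simulated data. Comparisons of 1 array each have no test. The number of arrays limits the precision.

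The genes and lists were chosen with earlier results of these data known. Named are the highest and lowest gene of each complex in each comparison (by the smaller of the treated arrays' differences where the pair enters), genes 2-fold apart, the isoform families, Cycs and Atp5if1, and up to 4 genes of a list. Extremes by the mean of the treated pair, Ndufv3, Sdha beside its promoter, Cox7c, Cd34, Cox16, Coq8b, Nrf1, Gabpa, genes passing at an unadjusted p and example markers were named after their values were seen. Promoter sequences came from RefSeq (GRCr8), and 68 of 78 genes matched. Normexp used the median signal (offset 50). Figures were drawn with matplotlib 3.10.9.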

Additional observations from a re-analysis of the deposited data

How the results depend on the processing

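For cells against myocardium the median kept its direction in every setting run, at -2.34 with quantile normalization, -2.30 with median centring and -1.33 with no scaling. Calls lower ran from 69 with no scaling to 74 without treated replicate 1, and calls higher were 0 except 4 with no scaling. With no scaling Cox6a1 was at 1.05, Cox4i2 at 1.13, Cox6b2 at 0.87, Cox7a2l at 1.25, Cox8a at 0.42 and Atp5if1 at 0.15, since that setting keeps the brighter signal of the cell arrays. The deposited table was not run for this comparison. For PBS against sham the median was -0.37 with normexp, -0.13 with quantile normalization, -0.48 with median centring, -0.12 with the deposited table and -0.39 with the mean over probes, with 68 of 77 genes lower under quantile normalization and the deposited table, and 12 genes passed 1.5-fold. For treated against PBS the median was 0.077 with quantile normalization, 0.205 with median centring and 0.068 with the deposited table, and 0.15 to 0.17 on single treated arrays. Genes lower numbered 1 with normexp or median centring, 12 with quantile normalization, 11 with the deposited table and 10 to 11 on single arrays, and 1 gene passed 1.5-fold. For treated against sham the median was -0.20 with normexp and -0.039 with quantile normalization and -0.043 with the deposited table, with 37 and 39 genes lower, and -0.24 to -0.22 on single arrays. There 1 gene passed 1.5-fold, and 0 to 1 passed 2-fold on a single array. For labelled against unlabelled cells the median was 0.016 with quantile normalization, 0.025 with median centring, 0.015 with the deposited table, -0.001 with the mean over probes and 0.13 with no scaling, which left 11 genes lower. Genes 2-fold apart numbered 0 with normexp, quantile normalization, median centring, the deposited table or no scaling, and 2 with no filter on dim probes. Where a cause is not named it was not tested. The counts of genes lower within tissue and within cells have no share over all features beside them in these settings. No paired analysis was possible because the groups compared share fewer than 2 replicate numbers.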

Other observations

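Hypoxia targets, 15 of 16 on the array, had 6 genes called higher and 5 lower in the cells than in myocardium by limma, with a median of -0.22 over the 15. This is near the share of all features measured on the 6 arrays, 36% higher and 34.7% lower. P4ha1, a collagen prolyl hydroxylase subunit, was higher by 3.44 (adjusted p = 9.25e-06) and Adm, adrenomedullin, by 3.00 (adjusted p = 1.21e-05). Vegfa, the vascular growth factor, was lower by a difference of -2.74 (adjusted p = 4.05e-05) and Egln3, a prolyl hydroxylase that senses oxygen, by -2.52 (adjusted p = 4.87e-05). On the PBS array 7 were higher and 8 lower than in sham, with a median of -0.15.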
